A study of Arabidopsis thaliana with 6 samples.

Results

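The SnRK2 family (SNF1-related protein kinases 2) of Arabidopsis thaliana consists of the 10 genes SNRK2.1 to SNRK2.10. They were taken by locus identifier from the deposited table of 33602 genes, and all 10 had a count in every library. They were compared between germinating seeds of the wild type Col-0 and of scl30a-1, a mutant line of SCL30a in the Columbia background. SCL30a encodes a serine/arginine-rich splicing factor. For both genotypes 50 mg of seeds had been held at 4 °C for 3 days, sown on MS medium and kept for 18 h at 21 °C under continuous white light of 100 µmol/m2. There were 3 libraries of poly(A) RNA per genotype, named here by genotype and by the letter of their column (a, b or c), and values per library are always given in that order. The tissue was whole seeds, so embryo, endosperm and seed coat were measured together, and fewer cells of a type and less RNA per cell cannot be told apart. The labels name 1 mutant line and no complemented line.

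SnRK2 kinases act at the core of signalling by abscisic acid (ABA), the hormone that keeps seeds dormant and holds back germination. Without ABA, clade A protein phosphatases 2C (PP2C) keep SnRK2 kinases dephosphorylated and inactive. ABA bound to its PYR/PYL receptors blocks these phosphatases, and the released kinases phosphorylate bZIP transcription factors such as ABI5, ion channels and other proteins. SNRK2.2, SNRK2.3 and SNRK2.6 (also OST1) are strongly activated by ABA and are together needed for the seed's response to it. SNRK2.7 and SNRK2.8 are weakly activated by ABA. SNRK2.1, SNRK2.4, SNRK2.5, SNRK2.9 and SNRK2.10 are not grouped with the ABA-activated kinases, and most of them respond to osmotic stress.

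The activation segment of such a kinase carries the residues that are phosphorylated when it is switched on. It is shown for SNRK2.6, to which the others are compared, and for SNRK2.3, SNRK2.8, SNRK2.10, SNRK2.1 and SNRK2.5. Each sequence is the coding DNA of 81 bases (27 codons) from the DFG motif to the APE motif, read 5′ to 3′ on the coding strand from the RefSeq annotation of TAIR10.1. Capitals mark codons for a residue other than that of SNRK2.6.
SNRK2.6: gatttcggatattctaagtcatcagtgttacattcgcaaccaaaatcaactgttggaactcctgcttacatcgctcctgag
SNRK2.3: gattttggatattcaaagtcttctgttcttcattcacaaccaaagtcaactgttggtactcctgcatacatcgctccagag
SNRK2.8: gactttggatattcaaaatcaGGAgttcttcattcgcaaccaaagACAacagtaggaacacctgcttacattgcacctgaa
SNRK2.10: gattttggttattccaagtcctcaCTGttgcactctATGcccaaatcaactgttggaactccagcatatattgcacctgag
SNRK2.1: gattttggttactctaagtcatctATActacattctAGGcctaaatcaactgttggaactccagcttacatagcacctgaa
SNRK2.5: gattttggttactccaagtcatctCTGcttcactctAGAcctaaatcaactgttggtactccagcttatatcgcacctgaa

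SNRK2.3 encodes the same residues as SNRK2.6 over this segment, with 11 silent codon differences. The 7 members outside the ABA-activated group encode another residue than SNRK2.6 at 1 or 2 codons, beside 11 to 19 silent codon differences. SNRK2.1, SNRK2.4, SNRK2.5 and SNRK2.10 carry their 2 residue changes at the same codons, while those of SNRK2.8 lie elsewhere in the segment. Over the whole protein, the ABA-activated members are 77.5% to 88.7% identical to each other and 59.4% to 65.0% identical to the other members. The closest pairs are SNRK2.4 with SNRK2.10 (91.2%), SNRK2.1 with SNRK2.5 (89.2%) and SNRK2.2 with SNRK2.3 (88.7%). The deposited counts are per gene, so they cannot tell annotated transcripts of a gene apart.

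Total counts ranged from 70687361 to 84356746 over the wild-type libraries and from 77817191 to 85605647 over those of scl30a-1. SCL30a (AT3G13570), the check of the labels, had 6890 to 8425 counts per wild-type library and 440 to 478 per scl30a-1 library. Library pairs of 1 genotype differed by more than sampling noise (chi-square per degree of freedom 5.49 to 23.7). This spread cannot tell biological from technical replicates. Each library was counted as a sample of its own because the series' design text calls the triplicates biological. Markers of the mature seed moved with genotype: 5 storage protein, oil body and dormancy genes summed to 1057 to 1337 CPM (counts scaled to library size) per wild-type library and to 8578 to 9933 CPM per scl30a-1 library, and all 5 were called higher. The endosperm markers EPR1 and MAN7 were also called higher (summed 319 to 393 CPM against 837 to 968 CPM). Of 4 green seedling markers 3 were tested and 2, RCA and LHCB1.3, were called lower. Of the 36-base words of LHCB1.3, 32.97% also occur in other genes. The 4 markers summed to 498 to 573 CPM against 439 to 550 CPM. Most of this sum was RBCS1A (mean 460 against 422 CPM), which was not called. The part of these differences in the SnRK2 values was not tested.

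The family covered a wide range of levels in germinating wild-type seeds. Levels between genes are given per length, as CPM per kb of RefSeq transcript, with the SD over 3 libraries. SNRK2.2 (72.7 ± 1.11 CPM per kb) and SNRK2.3 (68.6 ± 4.39 CPM per kb) were highest, and their library values overlapped. SNRK2.10 followed at 42.9 ± 0.411, SNRK2.1 at 40.4 ± 0.654 and SNRK2.8 at 35.5 ± 0.657 CPM per kb, without overlap between neighbours. The order of these close levels depends on the length used. SNRK2.8 has annotated transcripts of 1868 and 1521 bases. Per kb of coding sequence, SNRK2.8 (64.2 CPM) stood above SNRK2.1 (63.7 CPM). SNRK2.4 stood at 23.1 ± 1.06, SNRK2.6 at 7.98 ± 0.59 and SNRK2.5 at 5.25 ± 0.474 CPM per kb. SNRK2.7 (0.182 ± 0.0231 CPM per kb) and SNRK2.9 (0.181 ± 0.0194 CPM per kb) were barely detected and overlapped, with 13 to 38 counts per library over both genotypes. The ABA-activated group thus held the pair of most abundant members and 1 of the less abundant: within wild-type libraries SNRK2.2 stood at 9.14 ± 0.526 times the level of SNRK2.6 (n = 3).

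**Figure D1:**
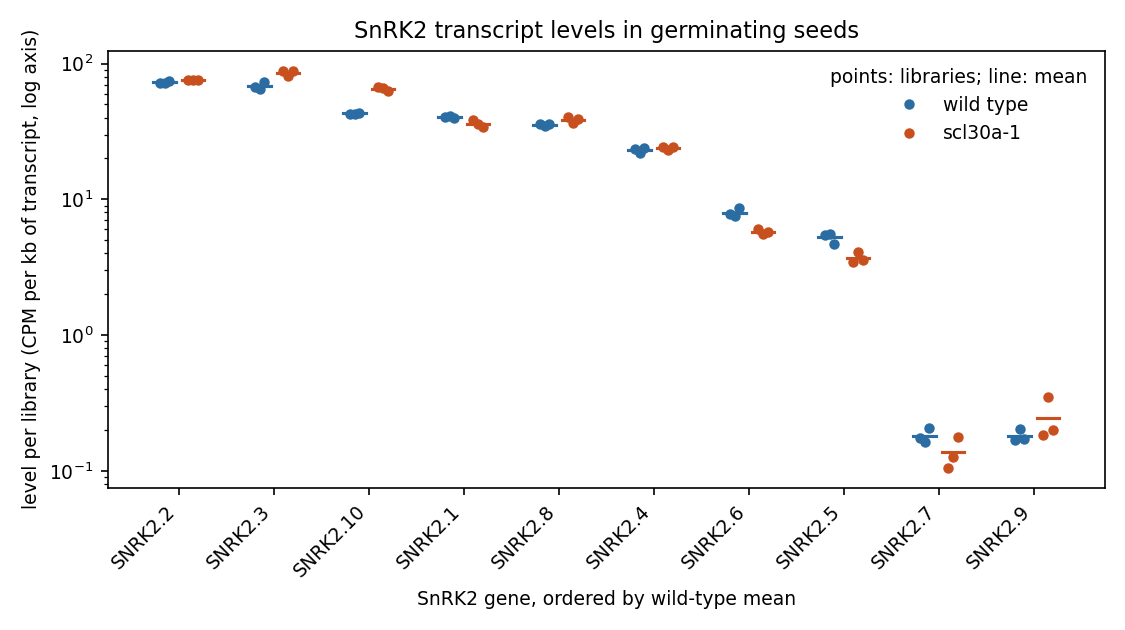
Level of each SnRK2 gene in each library, in CPM per kb of transcript on a log axis, ordered by the wild-type mean; points are the 3 libraries of a genotype and lines their means. SNRK2.2 and SNRK2.3 lead in both genotypes, and SNRK2.7 and SNRK2.9 lie below 1 CPM per kb.

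In scl30a-1, SNRK2.3 (85.7 ± 4.27 CPM per kb) stood above SNRK2.2 (75.7 ± 0.208 CPM per kb), without overlap. How this pair compares within either genotype depends on the length used. SNRK2.3 has annotated transcripts of 1635 and 1314 bases, and SNRK2.2 of 1720 and 1574 bases. SNRK2.10 was next at 65.4 ± 1.91 CPM per kb, far above SNRK2.8 (38.5 ± 1.87 CPM per kb) and SNRK2.1 (36.1 ± 2.06 CPM per kb), which overlapped each other. SNRK2.9 and SNRK2.7 again came last, at 0.245 ± 0.0921 and 0.137 ± 0.0378 CPM per kb.

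The comparison of genotypes asked whether SnRK2 transcripts differ in scl30a-1 seeds, and whether the ABA-activated members differ from the rest. All 10 members passed the filter on low counts. In edgeR's quasi-likelihood test, 5 of the 10 were called at an adjusted p under 0.05: SNRK2.10 and SNRK2.3 rose, and SNRK2.6, SNRK2.5 and SNRK2.1 fell. Among all 18736 genes tested 41.7% were called, 21.9% higher and 19.7% lower in scl30a-1, so the members' share was near the background. The CPM of the genotypes did not overlap for 7 members, against 52.1% of all genes tested. SNRK2.10 had the largest called change, 1.53-fold.

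Among the ABA-activated kinases, SNRK2.3 rose, SNRK2.6 fell and SNRK2.2 was not called. SNRK2.6 (AT4G33950, chr4:16271745-16274825, plus strand, TAIR10.1, 10 exons) encodes the kinase best known for closing stomata, and also acts in seeds. Its counts were 1038, 1086 and 1412 in the wild type against 962, 802 and 842 in the mutant. Scaled, these were 14.5, 14.2 and 16.2 CPM against 11.3, 10.4 and 10.9 CPM. Every scl30a-1 library thus lay below every wild-type library. The level fell by 27.6% (log2 fold change -0.47 with an SE of 0.067; adjusted p = 0.0004 by edgeR). SNRK2.6 is known to act in guard cells. Of 6 guard cell markers, GORK had 80 to 106 counts per wild-type library and 48 to 97 per scl30a-1 library and was not called. FAMA had 63 to 74 against 36 to 51 counts, KAT1 22 to 51 against 8 to 21 and SLAC1 5 to 11 against 1 to 6. HT1 had 0 counts in every library and MYB60 at most 1. Of the 36-base words of SLAC1, 38.14% also occur in other genes. The 6 summed to 2.55 to 2.74 CPM per wild-type library and 1.22 to 2.13 CPM per scl30a-1 library, and FAMA and KAT1 were called lower. The part of these cells in the SNRK2.6 difference was not tested.

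SNRK2.3 (AT5G66880, chr5:26710302-26712971, plus strand, 10 exons), which acts with SNRK2.2 in the ABA response of seeds and seedlings, was higher in scl30a-1. Its wild-type libraries had 109.7, 106.5 and 120.2 CPM and the mutant ones 143.2, 132.1 and 145.1 CPM. The genotypes did not overlap, and wild-type library c was the nearest to the mutant. The log2 fold change of 0.32 had an SE of 0.0595 (adjusted p = 0.00188 by edgeR).

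SNRK2.2 (AT3G50500, chr3:18741444-18744174, minus strand, 9 exons) had 123.8, 124.2 and 127.3 CPM against 129.8, 130.3 and 130.4 CPM in the mutant. These ranges did not overlap, but without composition scaling they did (125.1 to 131.2 CPM against 124.6 to 130.1 CPM). The log2 fold change was 0.06, with a 95% interval from -0.04 to 0.15, and was not called (adjusted p = 0.301 by edgeR). With upper-quartile scaling it was -0.01. SNRK2.2 and SNRK2.3 share only 10 words of 36 bases, or 0.593% and 0.625% of each transcript's words.

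**Figure D2:**
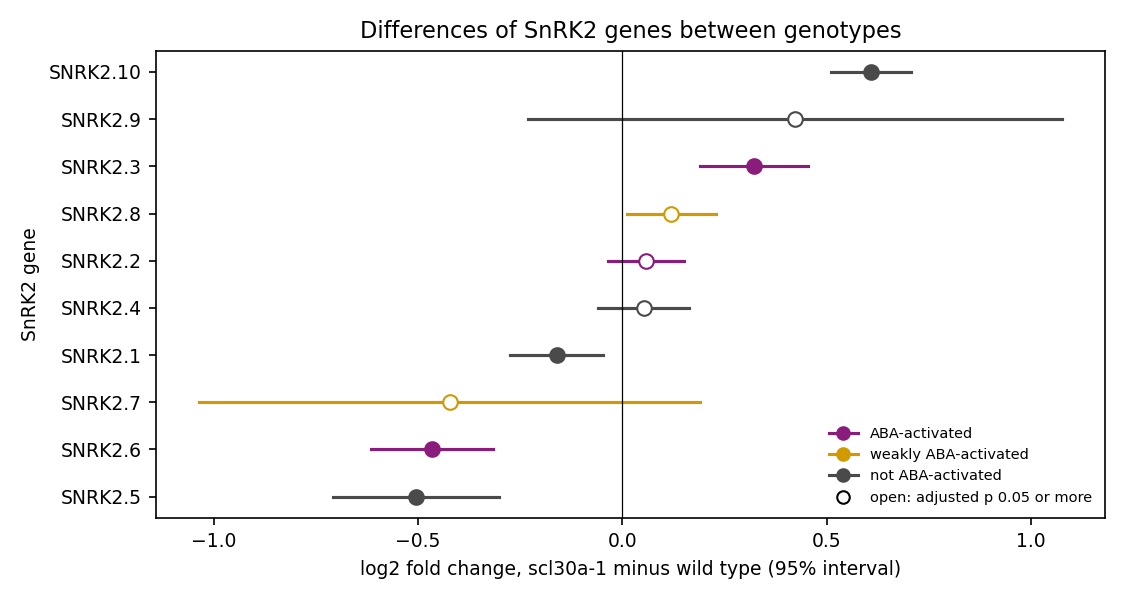
Log2 fold change of each SnRK2 gene, scl30a-1 minus wild type, with its 95% interval from the edgeR fit; colours give the class by ABA activation and open points were not called. SNRK2.10 is the highest at 0.61 and SNRK2.5 the lowest at -0.50, and the ABA-activated members lie at 0.32, 0.06 and -0.47.

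Of the kinases outside the ABA-activated group, SNRK2.10 rose most, while SNRK2.4, its closest relative, was not called. Both act in roots under salt stress. SNRK2.10 (AT1G60940, chr1:22439063-22442221, minus strand, 9 exons) had 5349, 5684 and 6573 wild-type counts, against 9964, 8897 and 8567 in the mutant. On the scaled level it went from 74.9 ± 0.717 to 114.2 ± 3.33 CPM, with a wide gap between the genotypes (75.6 CPM at most against 110.4 CPM at least). The log2 fold change of 0.61 had an SE of 0.044 (adjusted p = 3.31e-06 by edgeR), and its p ranked 464 among all genes tested. SNRK2.4 (AT1G10940, chr1:3655673-3658612, minus strand) had 44.2 ± 2.04 CPM against 45.8 ± 1.26 CPM in the mutant. Its libraries overlapped, and its log2 fold change was 0.05 (95% interval -0.06 to 0.16; adjusted p = 0.431 by edgeR), or -0.02 with upper-quartile scaling. The pair share 24 words, or 1.40% of those of SNRK2.10.

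SNRK2.1 and SNRK2.5, another closely related pair, both fell. SNRK2.1 (AT5G08590, chr5:2783168-2786113, plus strand) had 67.6, 68.7 and 66.5 CPM against 64.0, 60.4 and 57.1 CPM in the mutant. The genotypes did not overlap, but the difference was small (log2 fold change -0.16 with an SE of 0.051; adjusted p = 0.0289 by edgeR). The call was lost without wild-type library a (log2 fold change -0.16, adjusted p = 0.0714), wild-type library b (-0.15, adjusted p = 0.103) or scl30a-1 library c (-0.13, adjusted p = 0.0906). SNRK2.5 (AT5G63650, chr5:25481334-25483799, minus strand) had 658, 721 and 690 wild-type counts, against 498, 530 and 464 in the mutant. Its scaled level went from 8.85 ± 0.798 to 6.23 ± 0.576 CPM without overlap, a log2 fold change of -0.50 (SE 0.0913; adjusted p = 0.00165 by edgeR). Reads could be shared here: 21.2% of the SNRK2.5 words also occur in AT5G63640, which overlaps it on the opposite strand, or in AT2G33510, and the use of strand in counting was not given in the sources used here. AT5G63640 went the other way (log2 fold change 0.17, SE 0.0503, adjusted p = 0.0228 by edgeR), as did AT2G33510 (0.27, SE 0.097, adjusted p = 0.0497 by edgeR). The SNRK2.5 value is uncertain, and the part of shared reads in it was not tested.

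The weakly ABA-activated SNRK2.8 (AT1G78290, chr1:29457205-29459493, minus strand) promotes plant growth and acts in drought responses. Its 66.2 ± 1.23 CPM in wild-type seeds compared with 72.0 ± 3.49 CPM in the mutant, and it was not called (log2 fold change 0.12, 95% interval 0.01 to 0.23; adjusted p = 0.0743 by edgeR). The libraries did not overlap on this scale but did without composition scaling (65.3 to 68.8 CPM against 65.2 to 75.0 CPM). The log2 fold change was 0.07 without composition scaling (adjusted p = 0.348) and 0.05 with upper-quartile scaling (adjusted p = 0.424), and without scl30a-1 library b it was 0.16 and called (adjusted p = 0.0216). Of its words 7.31% also occur in the overlapping AT1G78280. SNRK2.7 (AT4G40010, chr4:18548444-18551183, minus strand) had 18, 18 and 26 wild-type counts against 13, 14 and 20. SNRK2.9 (AT2G23030, chr2:9803492-9806731, minus strand) had 17, 22 and 21 wild-type counts against 22, 38 and 22. At this depth no difference was detectable for either: libraries overlapped, and the 95% interval of the log2 fold change ran from -1.04 to 0.19 for SNRK2.7 and from -0.23 to 1.08 for SNRK2.9.

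Set against the rest, the ABA-activated members showed no common direction. Of the 3, 1 was called higher, 1 lower and 1 not. Of the other 7, 1 was called higher, 2 lower and 4 not. The median log2 fold change was 0.06 in the ABA-activated group and 0.05 in the others, beside 0.0027 over all genes tested. Summed per length, the ABA-activated members made up 49.7%, 49.8% and 51.4% of the family's level in wild-type seeds, against 49.4%, 49.3% and 50.9% in the mutant. The mean difference of -0.434 percentage points was smaller than the SD between libraries (0.928 for the wild type, 0.874 for scl30a-1). With 1 library left out it ranged from -0.938 (without scl30a-1 library c) to 0.101 (without wild-type library c, where it changed sign). It was -0.719 and -0.685 when library a or b of the wild type was dropped, and -0.202 and -0.163 when those letters of scl30a-1 were. The family as a whole summed to 291.0 to 304.0 CPM per kb against 328.8 to 342.2 CPM per kb in the mutant, without overlap. Without composition scaling these sums came to 293.4 to 313.4 against 314.2 to 341.8 CPM per kb, with almost no gap left.

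Ratios between members within a library do not depend on how libraries are scaled. They show unequal changes among the ABA-activated members and among those not activated by ABA. No pair of the weakly ABA-activated members was formed. The pairs are the closest relatives and the ABA-activated members, were chosen with the values known, and were not tested. SNRK2.3 stood at 8.66, 8.62 and 8.49 times the level of SNRK2.6 in wild-type seeds and at 14.6, 14.5 and 15.3 times in the mutant. The ratio of SNRK2.3 to SNRK2.2 went from 0.942 ± 0.0468 to 1.13 ± 0.0573. The size of such a ratio depends on the transcript lengths used, while its fold change between genotypes does not. For SNRK2.10 over SNRK2.4 it went from 1.86 ± 0.0701 to 2.73 ± 0.135, and for SNRK2.1 over SNRK2.5 from 7.72 ± 0.617 to 9.81 ± 1.13. For each of these pairs every scl30a-1 library lay above every wild-type library. In each, the member with the higher log2 fold change is the numerator, so the direction was set by that choice. No share over all pairs of genes was computed to set beside this. The ratio of SNRK2.1 to SNRK2.5 shares the uncertainty of the SNRK2.5 value.

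**Figure D3:**
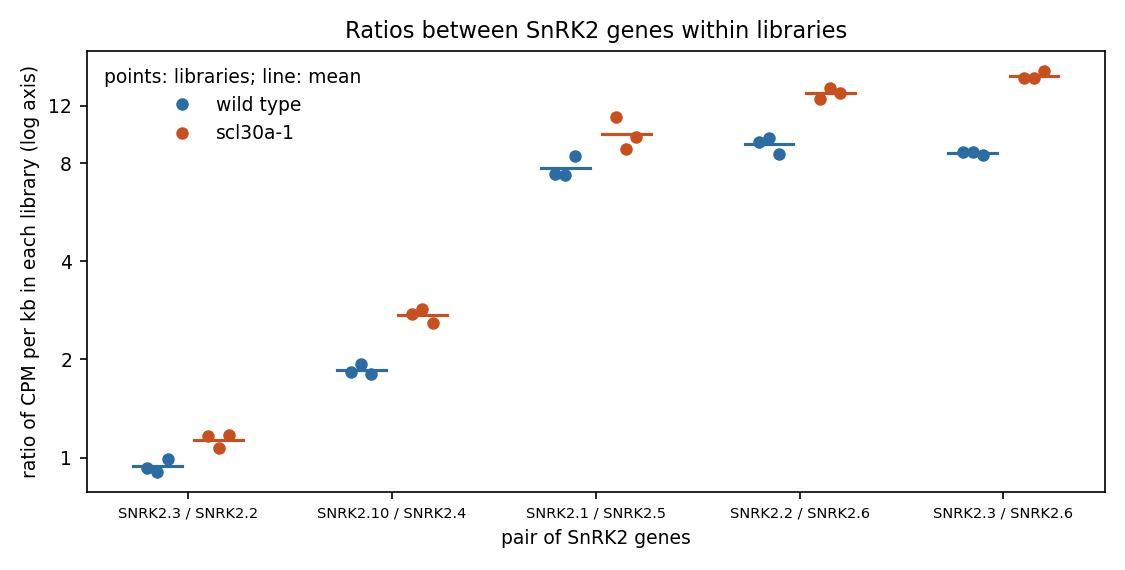
Ratio of the level (CPM per kb) of pairs of SnRK2 genes within each library, on a log axis; points are the 3 libraries of a genotype and lines their means. The ratio of SNRK2.3 to SNRK2.6 lies at 8.49 to 8.66 in the wild type and at 14.5 to 15.3 in scl30a-1.

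Letters known from ABA-responsive seed genes were searched in the promoters. In the 250 bases before each annotated start, on either strand, the ABRE core ACGTG occurred in 3 of the 10 members (SNRK2.3, SNRK2.7 and SNRK2.9), and in 22.9% of all 27443 protein-coding genes. The G-box CACGTG, each copy of which holds the ABRE core on both strands, occurred in SNRK2.3 and SNRK2.7 and in 6.5% of all promoters. The RY motif CATGCA occurred in 0 of the 10 and in 8.4% of all promoters. A match of letters is a description and not a binding site. The windows of the 2 members called higher are shown 5′ to 3′ on the strand of the gene, from TAIR10.1, with the matches in capitals: SNRK2.3 from chr5:26710052-26710301 (plus strand), and SNRK2.10 from chr1:22442222-22442471 (minus strand), which had none.
SNRK2.3: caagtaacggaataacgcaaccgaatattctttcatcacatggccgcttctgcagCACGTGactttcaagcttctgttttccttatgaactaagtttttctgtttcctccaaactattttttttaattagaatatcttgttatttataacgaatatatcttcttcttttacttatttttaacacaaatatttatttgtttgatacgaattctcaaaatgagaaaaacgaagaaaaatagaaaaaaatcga
SNRK2.10: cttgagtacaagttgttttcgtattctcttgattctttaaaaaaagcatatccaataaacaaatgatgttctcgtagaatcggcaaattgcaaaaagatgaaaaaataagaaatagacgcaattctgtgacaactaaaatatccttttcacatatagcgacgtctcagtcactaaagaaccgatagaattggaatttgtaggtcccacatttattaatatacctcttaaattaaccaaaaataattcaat

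The genes most like the ABA-activated members over the 6 libraries were found by Pearson correlation of log2 CPM, among 16861 genes that averaged 50 counts or more. For SNRK2.2 they were AT1G73710 (r = 0.999), ABCB11 (AT1G02520, r = 0.998) and AGO7 (AT1G69440, r = 0.997). For SNRK2.3 they were AGL67 (AT1G77950, r = 0.999), GMI1 (AT5G24280, r = 0.999) and AT5G26610 (r = 0.998). For SNRK2.6 they were TET10 (AT1G63260, r = 0.999), AT5G08360 (r = 0.998) and AT4G18490 (r = 0.998). Many other genes were nearly as alike: r was at least 0.9 for 1622 genes with SNRK2.2, 2046 with SNRK2.3 and 1714 with SNRK2.6. The 6 points fall into 2 genotypes, so these values are a description of the libraries. A high r does not mean a change of like size. SNRK2.2 was not called (log2 fold change 0.06), while AT1G73710, ABCB11 and AGO7 were called higher (0.19, 0.40 and 0.34).

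Genes that act around the SnRK2 kinases were read from the same fit, in the order of signalling. The counts of each list stand beside 41.7% of all genes called, 21.9% higher and 19.7% lower. Among the 14 ABA receptor genes 12 had enough counts, of which 5 were called higher, 4 lower and 3 not (median log2 fold change -0.02). Only 1 was called lower when any of 4 libraries was left out (a or b of the wild type, a or c of scl30a-1). PYL7 (AT4G01026) is among the higher calls, but 44.48% of its words also occur in AT4G01030. The rises were largest in PYL12 (AT5G45870, log2 fold change 2.53, SE 0.153), PYL11 (AT5G45860, 2.37, SE 0.156) and PYL13 (AT4G18620, 2.34, SE 0.219), with edgeR adjusted p = 8.24e-07, 1.68e-06 and 2.21e-05. These genes were of low abundance, with 28 to 126 counts per wild-type library and 153 to 697 per scl30a-1 library. PYR1 (AT4G17870), the most abundant receptor gene per length in the wild type at 146.7 CPM per kb, was not called (log2 fold change -0.03, SE 0.0675; adjusted p = 0.739 by edgeR).

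Of the 9 clade A PP2C genes, whose products inactivate SnRK2 kinases, 6 were called higher, 0 lower and 3 not (median log2 fold change 0.71). Without composition scaling, and likewise with upper-quartile scaling, 4 were called higher and 0 lower. With no filter, with DESeq2, or without any library except scl30a-1 library b, 5 were called higher. HAI1 (AT5G59220), among the 6, had few counts (6, 10 and 6 in the wild type against 22, 16 and 10). Its libraries overlapped (adjusted p = 0.0461 by edgeR). AHG1 (AT5G51760), which acts in seeds, went from 27.7 ± 1.58 to 67.6 ± 1.72 CPM (log2 fold change 1.29, SE 0.0528; adjusted p = 5.66e-08 by edgeR). HAI2 (AT1G07430) went from 18.8 ± 0.612 to 30.7 ± 0.908 CPM (log2 fold change 0.71, SE 0.0494; adjusted p = 2.59e-06 by edgeR). ABI1 (AT4G26080), the most abundant of the 9 per length in the wild type at 44.0 CPM per kb, was not called (95.4 ± 5.21 CPM against 95.1 ± 5.26 CPM; adjusted p = 0.961 by edgeR).

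Group B Raf-like kinases phosphorylate the activation segment of SnRK2 kinases. Of 18 genes, 5 were called higher, 3 lower and 10 not (median log2 fold change 0.06, or -0.01 with upper-quartile scaling), a share near that of all genes. RAF18 (AT1G16270), RAF20 (AT1G79570) and RAF24 (AT2G35050), which act on SnRK2 kinases that ABA does not activate, had log2 fold changes of 0.06 (SE 0.065; 9.58% of its words also occur in other genes), 0.10 (SE 0.06) and 0.08 (SE 0.0618). None of the 3 was called (edgeR adjusted p = 0.469, 0.214 and 0.359). RAF12 (AT4G23050) rose from 125.0 ± 5.69 to 167.7 ± 10.14 CPM, a log2 fold change of 0.42 (SE 0.0579; adjusted p = 0.000286 by edgeR). RAF40 (AT3G24715) fell from 2.33 ± 0.311 to 1.09 ± 0.12 CPM, a log2 fold change of -1.09 (SE 0.14; adjusted p = 0.000181 by edgeR), and 11.35% of its words also occur in AT3G24730.

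Genes of SnRK2 substrates went both ways: of 15, 14 were tested, 4 were called higher, 5 lower and 5 not (median log2 fold change 0.09). KAT1, among the lower calls, is also counted above as a guard cell marker. Without wild-type library b, and likewise without scl30a-1 library a, 3 were called higher and 3 lower. Among the bZIP factors, ABI5 (AT2G36270) rose from 79.7 ± 1.38 to 141.1 ± 3.00 CPM, a log2 fold change of 0.82 (SE 0.0437; adjusted p = 3.25e-07 by edgeR). ABF3 (AT4G34000) went down, from 4.81 ± 0.453 to 2.47 ± 0.147 CPM, a log2 fold change of -0.96 (SE 0.0981; adjusted p = 4.02e-05 by edgeR). RBOHF (AT1G64060), an NADPH oxidase that makes reactive oxygen in ABA signalling, was also lower, with a log2 fold change of -0.65 (SE 0.106; adjusted p = 0.000907 by edgeR). VCS (AT3G13300), an mRNA decapping factor phosphorylated by SnRK2 kinases that ABA does not activate, was not called (log2 fold change 0.14, SE 0.0611; adjusted p = 0.0903 by edgeR). Of 8 ABA-responsive target genes 7 were tested, of which 6 were called higher and 0 lower (median log2 fold change 2.09). They include RD29B (AT5G52300; log2 fold change 2.303, SE 0.0543; adjusted p = 3.46e-09 by edgeR) and RAB18 (AT5G66400; 2.28, SE 0.127, adjusted p = 4.82e-07), while COR47 (AT1G20440) was not called (0.04, SE 0.0636, adjusted p = 0.607).

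The related kinase families also had genes on both sides. Of 3 SnRK1 genes, which encode energy sensors, KIN10 and KIN11 were tested and not called (log2 fold change -0.09, SE 0.0475, and 0.10, SE 0.0501; edgeR adjusted p = 0.172 and 0.151). Of 25 SnRK3 (CIPK) genes, which act with calcium sensors, 19 were tested, 5 were called higher, 8 lower and 6 not (median log2 fold change -0.08). Without wild-type library b 4 were called higher and 3 lower. The lower calls came to 5 without wild-type library a or scl30a-1 library a, and to 4 without scl30a-1 library c. CIPK11 (AT2G30360) is among the lower calls, but 98.19% of its words also occur in AT2G30362, so its value is uncertain. The smallest p was that of CIPK15 (AT5G01810), a negative regulator in ABA responses, at 61.7 ± 0.419 CPM against 43.4 ± 1.02 CPM in the mutant (log2 fold change -0.51, SE 0.0422; adjusted p = 9.27e-06 by edgeR).

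**Figure D4:**
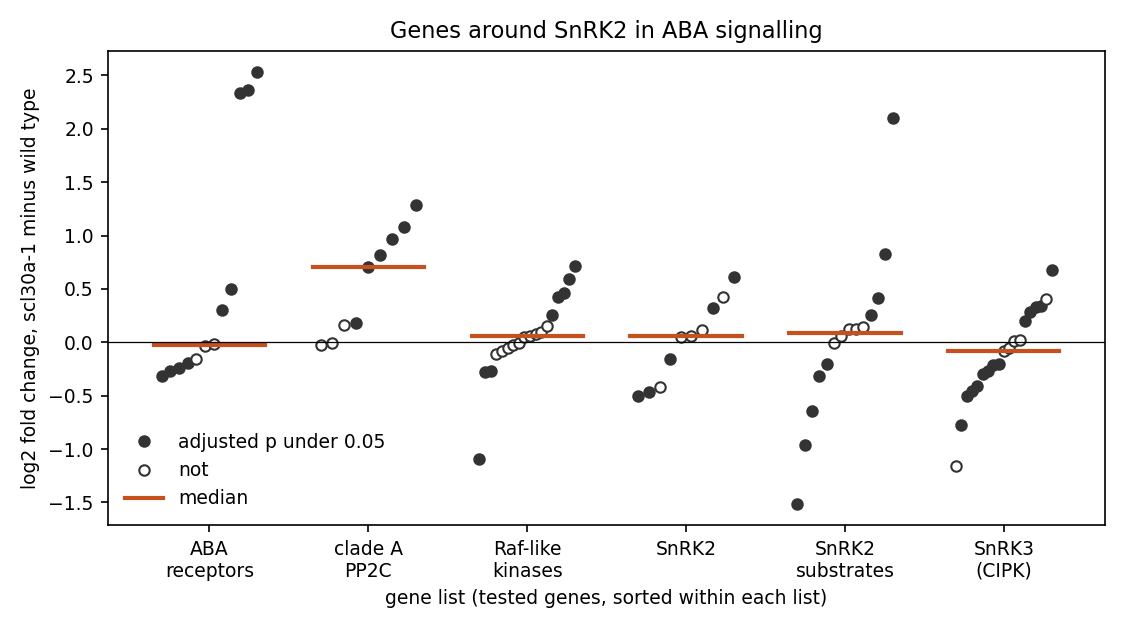
Log2 fold change, scl30a-1 minus wild type, of the tested genes of 6 lists, sorted within each list; filled points were called at an adjusted p under 0.05 and bars are list medians. The PP2C list has its median at 0.71, while the medians of the other 5 lists lie between -0.08 and 0.09.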

How the data were processed

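RNA-seq of 6 libraries was analysed. Per the file headers, the authors deposited a table of unnormalized counts for each gene; the genome build was TAIR10, per the submitters' processing notes. Aligner, counting tool and strand use were not given in the sources used here. The series' design text calls the triplicates biological. Column letters could not be tied to replicate numbers, so columns were assigned to genotypes only, and 6 columns of length-normalized values in the same table were not used. Levels per length, planned on those values, are therefore TMM-scaled CPM per kb of the lowest-numbered RefSeq transcript.

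The deposited counts were compared by edgeR 4.0.16 in R 4.3.3 (quasi-likelihood, two-sided, TMM scaling, genotype as the only term), with Benjamini-Hochberg adjustment over the 18736 genes kept by filterByExpr (minimum count 10). Another 1213 genes had no values. Standard errors are the unshrunken coefficient over the root of F. The fit was tested on simulated data. DESeq2 1.42.0 and limma 3.58.1 were alternatives. Shared words are 36-base words found in RefSeq transcripts of other genes. Identities are from global alignments (Biopython 1.88).

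Named are all members, at most the 4 called genes of smallest p per other list, genes whose role is paired with SnRK2 (RAF18, RAF20, RAF24, VCS, SCL30a) and, chosen after their values were seen, PYR1, ABI1, HAI1, COR47, KIN10, KIN11, markers and genes sharing words. The members and lists were chosen with earlier results of these data known. The activation segment of SNRK2.2 is not reported here.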

Additional observations from a re-analysis of the deposited data

How the results depend on the processing

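The number of SnRK2 members called was 5 under the 3 other scalings, the 2 other filters, DESeq2 and limma-voom, and 4 to 6 with each library left out in turn. Over 14 alternatives, SNRK2.10, SNRK2.3, SNRK2.6 and SNRK2.5 kept direction and call in each, with log2 fold changes of 0.54 to 0.62, 0.25 to 0.36, -0.53 to -0.42 and -0.59 to -0.46. SNRK2.1 was called in 11 of 14. With upper-quartile scaling, which moved the median of all genes to -0.065, the uncalled SNRK2.2 and SNRK2.4 reversed, to -0.0101 and -0.0158; the cause was not tested. Genes called overall ranged from 5825 to 8075 with a library left out. Of those called, 4106 were higher and 3700 lower; this became 3119 and 4589 with library totals alone, and 2961 and 5258 with upper-quartile scaling. Per kb of coding sequence, an alternative chosen after seeing the data, 6 of the 10 members kept their place, as SNRK2.1 and SNRK2.8, and SNRK2.7 and SNRK2.9, exchanged theirs. The share of the ABA-activated members then differed by -0.515 percentage points. Planned levels from the deposited length-normalized values were not run.

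Column letters were not taken to pair the libraries: deviations of same-letter libraries correlated at -0.077, 0.238 and 0.247, and not every library correlated best with its own letter. With the letter as a replicate block, 8940 genes and 6 members were called, with SNRK2.8 added (adjusted p = 0.0492). Counts of 13 to 38 limit SNRK2.7 and SNRK2.9.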
